A study of Mus musculus with 8 samples.

Results

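The genes described here are 10 immediate-early genes: Fos, Fosb, Jun, Junb, Jund, Egr1, Egr2, Egr3, Nr4a1 and Ier2. They were selected by gene symbol, with earlier results of these data known, and all 10 were found among the 32227 gene symbols of the count tables. Their transcripts were followed through the larger cell classes of a single-cell dataset from mouse brain, in cells dissociated with or without inhibitors of new RNA and protein synthesis.

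Immediate-early genes are transcribed within minutes of a stimulus, because the factors that switch them on are already in the cell and wait only to be phosphorylated. Fos and Jun proteins pair through leucine zippers to form AP-1, the EGR proteins are zinc finger transcription factors, Nr4a1 encodes the orphan nuclear receptor Nur77, and Ier2 encodes a small nuclear protein. Their messenger RNAs are short-lived, so a level measured in a cell reflects recent transcription, and in microglia, the resident macrophages of the brain, these genes are known to be switched on by enzymatic tissue digestion as well as by inflammation.

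Leukocytes were prepared from the brains of 8 male C57Bl/6J mice that were labelled as 5 to 6 months old and had not been perfused, so blood cells stayed in the tissue. Each mouse received an intraperitoneal injection of lipopolysaccharide (LPS, 15000000 EU/kg), a component of bacterial cell walls, or of saline, and was used 24 hours later. The brain was dissociated with enzymes either in DMSO, the solvent, or in a mixture of actinomycin D and triptolide, which stop transcription, with anisomycin, which stops translation. Cells bearing CD45, the common leukocyte antigen, were enriched on magnetic columns and captured by PIPseq, a droplet method that tags each RNA molecule with a unique molecular identifier (UMI). Each of the 4 groups (saline with DMSO, saline with inhibitors, LPS with DMSO, LPS with inhibitors) had 2 libraries, 1 mouse each, from batches 1 and 2. These batches are taken here as capture days 1 and 2. Values below are given for day 1 before day 2, p-values measure the spread between these libraries, and no dissociation without enzymes is compared here.

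The libraries held 90352359 to 141182123 UMIs, and 12039 to 17364 cells of each passed the limits on UMIs, genes and mitochondrial share. Median depth was 2207 to 4762.5 UMIs per cell, and 15.5% to 33.7% of a library's UMIs lay in barcodes with at most 99 UMIs, taken here as free RNA. Any pair of libraries shared 0 to 25 cell barcodes. Cells were classed by marker genes. Microglia numbered 86808 and had each of their 12 markers in at least 10% of cells, as the other classes tested had at least 6 of theirs. The other classes tested held 184 (leptomeningeal fibroblasts) to 3660 (monocytes) cells. Plasma cells, mast cells and basophils, erythrocytes, oligodendrocytes, astrocytes and neurons were too few for a test. Of these, erythrocytes alone are taken up below.

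For 7 of the 10 genes RefSeq gave windows from 250 bases before to 50 after the transcription start (11 windows, mouse build GRCm38.p6, an older build than that named for the count tables, which hold no coordinates). The letters TGACG, the core of the cyclic AMP response element bound by CREB and ATF proteins, occurred in 7 of the 11 windows, belonging to 5 of the 7 genes (Egr2, Fos, Fosb, Junb and Nr4a1), and in 20.8% of all 32851 mouse promoter windows. Of the 11 windows 5 are those of Egr2. All motifs were searched on both strands. TGACATCA, a form of the AP-1 site, was in 1 of the 11 windows, that of Jun, and in 3.62% of all windows. GCGNGGGCG, the EGR site, was in 2 of the 11, those of Fosb and Nr4a1 (5.55% of all), and the serum response element core, the site of serum response factor, in 4 of the 11, all of Egr2 (1.63% of all). TGACGTCA (1.79% of all windows) and TGANTCA (7.81%) were in no window of these genes. The stretches below carry these letters in capitals, are written 5′ to 3′ on the coding strand, and are shown because these genes moved together in the data that follow. A match describes letters and not a bound factor.
Fos, chr12:85473750-85473869, plus strand, bases -140 to -21 from the start, TGACG in capitals: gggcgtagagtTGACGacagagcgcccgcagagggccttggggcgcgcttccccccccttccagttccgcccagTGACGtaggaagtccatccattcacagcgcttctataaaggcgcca
Jun, chr4:95052243-95052362, minus strand, bases -140 to -21, TGACATCA in capitals: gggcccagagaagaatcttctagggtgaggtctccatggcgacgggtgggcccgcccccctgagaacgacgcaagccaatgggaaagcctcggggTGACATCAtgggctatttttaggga
Junb, chr8:84978769-84978888, minus strand, bases -140 to -21, TGACG in capitals: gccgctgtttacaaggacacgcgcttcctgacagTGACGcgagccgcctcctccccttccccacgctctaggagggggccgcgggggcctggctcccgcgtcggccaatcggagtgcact
Fosb, chr7:19310088-19310117, minus strand, TGACG in capitals: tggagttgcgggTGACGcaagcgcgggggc
Nr4a1, chr15:101266601-101266630, plus strand, TGACG of the other strand in capitals: ccgcgctccctgCGTCAatggaaccccgcg
Egr2, chr10:67537484-67537513, plus strand, serum response element core in capitals: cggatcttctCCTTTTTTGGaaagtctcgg

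In microglia, all 10 genes were called higher after dissociation in DMSO than in inhibitors in mice given saline, and 9 of 10, all but Egr3, in mice given LPS. Levels are UMIs of a gene per 1000000 UMIs of all genes (CPM), summed over the cells of a class in a library. A gene was called when edgeR's quasi-likelihood test, fitted over all genes of the class, gave a Benjamini-Hochberg adjusted p under 0.05 and a log2 fold change over 1. Such a sum does not separate more cells with the transcript from more transcript in each cell, which is taken up below with the single cells.

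Fos (ENSMUSG00000021250), the AP-1 subunit after which the family is named, stood at 1204 and 647 CPM with saline and DMSO and at 5.96 and 10.2 CPM with saline and inhibitors. With LPS it was at 1555 and 1184 CPM in DMSO and at 34.9 and 28.3 CPM in inhibitors. The groups did not overlap in either arm, and the log2 fold change was 6.76 ± 0.41 (SE, n = 2 libraries per group, edgeR adjusted p = 1.60e-05) within saline and 5.4 ± 0.38 (edgeR adjusted p = 3.50e-05) within LPS. Fosb (ENSMUSG00000003545), its close paralog, was at 63.4 and 30.3 CPM against 0.736 and 0.424 CPM within saline, and at 7.55 and 3.84 against 0.161 and 0.0805 CPM within LPS. These differences came to 6.22 ± 0.42 and 5.56 ± 0.47 on the log2 scale. In the inhibitor libraries Fosb rested on 33, 10, 9 and 6 UMIs in all microglia of a library.

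Jun (ENSMUSG00000052684), the most common partner of Fos, was at 1090 and 751 CPM with DMSO and at 60.5 and 64.4 CPM with inhibitors after saline. After LPS it was at 603 and 567 CPM against 58.2 and 57.7 CPM. The inhibitor libraries of both arms thus lay within 57.7 to 64.4 CPM, and the fold was 14.2 within saline and 9.78 within LPS (log2 3.82 ± 0.24 and 3.29 ± 0.23). Junb (ENSMUSG00000052837), which competes with Jun for partners, was at 663 and 492 against 91.6 and 82.1 CPM, and with LPS at 732 and 518 against 83.7 and 60.5 CPM. Jund (ENSMUSG00000071076), the JUN gene most often expressed at rest, was at 653 and 509 against 92.8 and 82 CPM, and with LPS at 180 and 126 against 27.6 and 18.5 CPM. Junb and Jund had the smaller folds among the 10 genes within saline (6.45 and 6.46), and neither overlapped between DMSO and inhibitors.

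Egr1 (ENSMUSG00000038418), the best known EGR gene, was at 635 and 328 CPM with DMSO and at 11.5 and 8.53 CPM with inhibitors after saline, and at 686 and 267 against 22.6 and 10.7 CPM after LPS. Its fold was 46.1 within saline and 28.6 within LPS. Egr2 (ENSMUSG00000037868), known for its roles in myelination and in myeloid cells, was at 20.2 and 13.9 against 2.3 and 1.06 CPM, and with LPS at 3.7 and 1.33 against 0.233 and 0.174 CPM. Egr3 (ENSMUSG00000033730) was at 22.6 and 13.7 against 1.36 and 1.57 CPM, and with LPS at 2.48 and 0.643 against 0.412 and 0.282 CPM. The lower LPS library of Egr3 in DMSO, with 28 UMIs, was close to the inhibitor libraries (23 and 21 UMIs). Its log2 fold change of 2.18 ± 0.5 was not called within LPS (edgeR adjusted p = 0.187).

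Nr4a1 (ENSMUSG00000023034) was at 60.8 and 30.8 CPM with DMSO and at 3.52 and 2.8 CPM with inhibitors after saline, and at 15 and 8.43 against 2.89 and 3.26 CPM after LPS. It had the smallest called fold of the 10 genes within LPS, 3.68 (log2 1.88 ± 0.29, edgeR adjusted p = 0.0119), against 13.9 within saline. Ier2 (ENSMUSG00000053560) was at 151 and 88.1 against 8.77 and 8.7 CPM, and with LPS at 616 and 290 against 67 and 46.1 CPM. The LPS libraries in inhibitors thus lay between the saline libraries in inhibitors and those in DMSO. Within each arm, no gene of the 10 overlapped between DMSO and inhibitors. How many of all genes did not overlap is not given here. Across arms some did: the lower LPS library in DMSO was at 1.33 CPM of Egr2, inside the range of the saline libraries in inhibitors, and at 0.643 CPM of Egr3, below them.

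**Figure D1:**
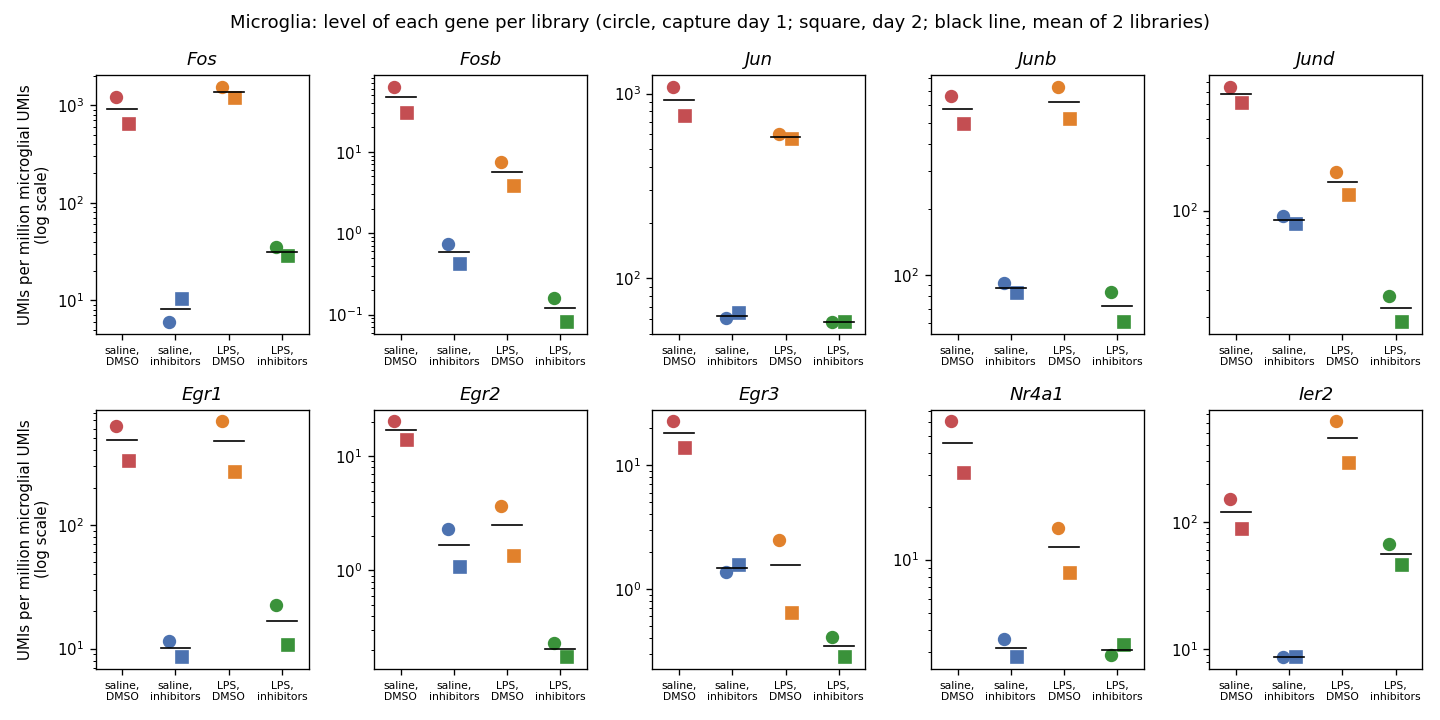
Level of each of the 10 genes in microglia (vertical axis, CPM of microglial UMIs, log scale) in the 4 groups, 1 point per library (circles, capture day 1; squares, day 2) with a line at the group mean. In every panel the DMSO libraries lie above the inhibitor libraries of the same arm, from 1204 and 647 against 5.96 and 10.2 CPM for Fos after saline to 2.48 and 0.643 against 0.412 and 0.282 CPM for Egr3 after LPS.

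Within saline 10 of 10 genes were called higher with DMSO, where 0.200% of the 22009 genes tested were (44 genes), and within LPS 9 of 10, where 0.336% were (74 genes). The median log2 fold change of the 10 was 3.76 and 3.19, and that of all genes tested was -0.01 and -0.03. DESeq2 called 10 and 10. The genes together made up 0.456% and 0.29% of microglial UMIs with saline and DMSO, and 0.0279% and 0.0262% with saline and inhibitors. With LPS they made up 0.44% and 0.297% against 0.0298% and 0.0226%. In the DMSO libraries each of the 10 genes was higher on day 1 than on day 2, by 1.28 to 2.09 times after saline. After LPS the level on day 1 was 1.06 to 3.86 times that on day 2. Within each day, DMSO exceeded inhibitors for all 10 genes: the Fos ratio was 202 on day 1 and 63.2 on day 2 after saline, and 44.5 and 41.8 after LPS. The lowest ratios of a single day were those of Egr3 (2.28) and Nr4a1 (2.59), on day 2 after LPS. These counts by day cover the 10 genes, and none over all genes is given here.

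**Figure D2:**
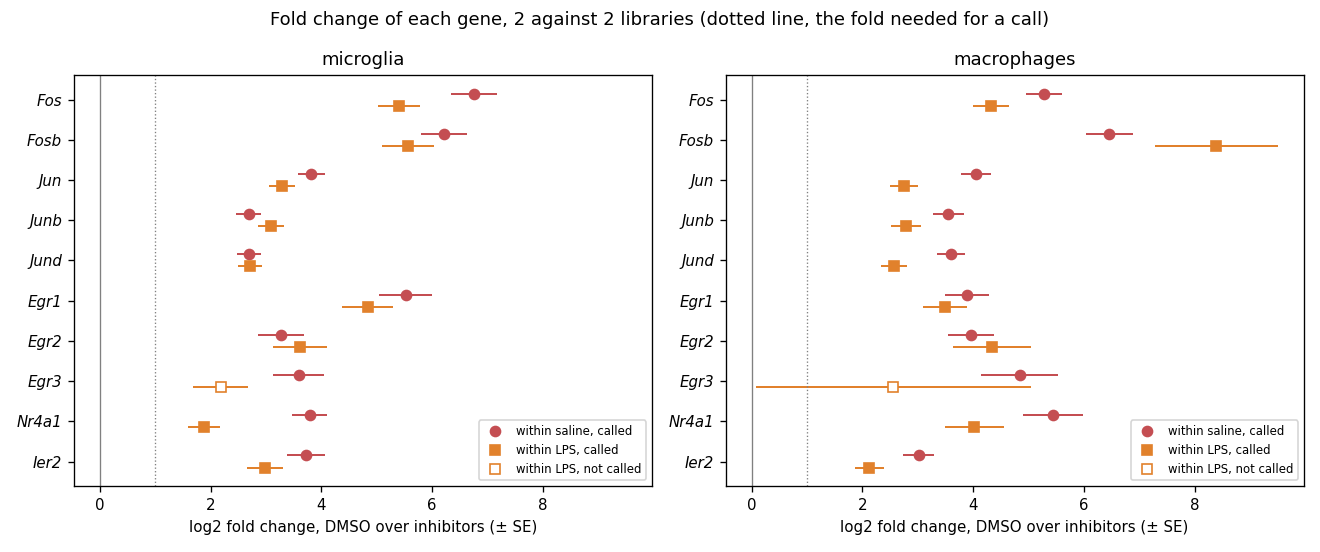
Log2 fold change of DMSO over inhibitors (horizontal axis, with SE) for each gene in microglia and macrophages, within saline (circles) and within LPS (squares), from 2 against 2 libraries. Filled symbols are called and the dotted line is the log2 fold of 1 that a call needs. The macrophage value of Fosb within LPS was fitted against 0 UMIs, depends on the prior count and is no bound.

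Whether the difference between DMSO and inhibitors itself differed after LPS was tested as an interaction. In microglia edgeR called 0 of the 10 genes, with 0.0273% of all genes called in either direction, and 2 of the 10 had an unadjusted p under 0.05. These were Fos, with a change of its log2 difference from saline to LPS of -1.36 ± 0.46 (unadjusted p = 0.0119), and Nr4a1, with -1.91 ± 0.42 (unadjusted p = 6.15e-04, edgeR adjusted p = 0.871). DESeq2 called 1, Nr4a1.

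LPS against saline was compared in microglia within each dissociation condition, and the result depended on the scaling more than that of DMSO against inhibitors did. The edgeR fit scales libraries by TMM factors, which placed the median gene at -0.20 (inhibitors) and -0.19 (DMSO) on the log2 scale. With library totals as the only scaling, as in the CPM values, the median gene was at -0.97 and -0.96, and 1306 genes were called higher and 9332 lower with inhibitors, where the TMM fit called 3397 and 3053. Values by totals, an alternative chosen after the data were seen, therefore stand beside the fitted ones.

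With inhibitors, Fos, Egr1 and Ier2 were higher after LPS (log2 2.71 ± 0.35, 1.46 ± 0.41 and 3.44 ± 0.34, edgeR adjusted p = 4.37e-05, 0.0115 and 5.22e-06), where 15.4% of genes were called higher. Jund and Egr2 were lower (log2 -1.18 ± 0.21 and -2.3 ± 0.51), where 13.9% were. By totals Fos (1.98) and Ier2 (2.69) were still called higher and Jund (-1.92) and Egr2 (-3.09) lower, but Egr1 (0.72) was not called. Fosb (-1.59, edgeR adjusted p = 0.0545) and Egr3 (-1.32, edgeR adjusted p = 0.0608) were not called, while totals, DESeq2 and the fit with capture day as a block each called both lower. Jun (0.65), Junb (0.48) and Nr4a1 (0.74) were not called, and by totals each was slightly below 0 (-0.11, -0.27 and -0.05).

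With DMSO, Fos (log2 1.35 ± 0.32) and Ier2 (2.7 ± 0.32) were higher after LPS, where 14.3% of genes were, and Fosb (-2.24), Jund (-1.16), Egr2 (-1.97), Egr3 (-2.72) and Nr4a1 (-1.18) were lower, where 13.5% were. By totals Ier2 (1.92) was still called higher and all of those 5 genes lower, but Fos (0.56) was not called: its levels of 1555 and 1184 CPM after LPS overlapped with 1204 and 647 CPM after saline. Jun (0.12), Junb (0.88, under the fold limit) and Egr1 (0.77) were not called, and by totals were at -0.66, 0.11 and -0.01. Under both scalings, then, Ier2 was called higher and Jund and Egr2 lower after LPS in both dissociation conditions. By totals 1254 of all 22009 genes were called higher and 9107 lower with DMSO, and 1306 and 9332 with inhibitors. A lower call by totals was thus common among all genes and does not set Jund and Egr2 apart. Fosb, the paralog of Fos, went from 63.4 and 30.3 to 7.55 and 3.84 CPM.

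Single microglia were compared after thinning each cell to 800 UMIs, so that depth was equal, and a gene counted as detected with 1 or more UMIs. Fos was detected in 30.5% and 19.2% of microglia with saline and DMSO and in 0.407% and 0.547% with saline and inhibitors. With LPS it was detected in 48.8% and 41.7% against 3.03% and 2.56%. Without thinning the shares were 52% and 32.4% against 1.47% and 1.26%, and 74.5% and 68.7% against 13.9% and 13.5%, the LPS libraries being deeper. Cells that held Fos also held more of it: they had 3.06 and 2.54 UMIs of Fos each with saline and DMSO and 1.02 and 1.25 with inhibitors, and 2.75 and 2.59 against 1.08 and 1.06 with LPS. Both the share of cells and the UMIs per cell were thus higher with DMSO.

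Jun was detected in 36.6% and 30.6% of thinned microglia against 4.6% and 4.89% after saline, and in 31.7% and 30.5% against 4.95% and 4.96% after LPS (unthinned 60.6% and 49.8% against 14.8% and 12.7%, and 65.7% and 65.3% against 22.5% and 25.1%). Egr1 was detected in 20% and 12.3% against 0.666% and 0.454%, and after LPS in 34.3% and 17.8% against 2.07% and 0.921% (unthinned 34% and 21% against 2.46% and 1.12%, and 65.7% and 47.8% against 8.66% and 5.3%). Egr1 levels were alike in the DMSO libraries of both arms, but on each capture day more cells held it after LPS than after saline, with fewer UMIs each: 2.46 and 2.02 per positive cell after saline and 1.74 and 1.37 after LPS. Jun UMIs per positive cell were likewise 2.38 and 1.93 after saline and 1.67 and 1.72 after LPS. Ier2, by contrast, was in 7.48% and 4.81% of cells with saline and DMSO and in 32.3% and 18.1% with LPS and DMSO. Fosb, Egr2, Egr3 and Nr4a1 were sparse, detected in at most 3.85% of thinned microglia of any library.

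Many microglia held several of the genes at once with DMSO, and few did with inhibitors. At least 3 of the 10 were detected in 25.2% and 17.5% of thinned microglia with saline and DMSO (2758 of 10925 and 1676 of 9564 cells) and in 0.111% and 0.217% with inhibitors (15 of 13513 and 21 of 9697). With LPS the shares were 36.8% and 23.8% (4302 of 11689 and 1989 of 8369) against 0.131% and 0.121% (14 of 10680 and 15 of 12371). Unthinned, they were 53.1% and 34.9% against 2.56% and 1.36%, and 77.7% and 67% against 11.2% and 8.46%. At least 1 gene was detected in 58.1% to 78.3% of thinned microglia with DMSO and in 17.7% to 21.8% with inhibitors. Among erythrocytes, which have no nucleus and cannot transcribe, 1 of 17 and 3 of 50 thinned cells of the 2 saline DMSO libraries held any of the 10 genes. Unthinned, Fos was in 47.1% and 18% and Jun in 29.4% and 36% of the erythrocytes of these libraries. Their median depth over all libraries was 13374 UMIs before thinning, against 3508 in microglia.

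In the DMSO libraries, microglia with at least 3 of the genes were close in depth to those with none. With saline and DMSO their median was 3220.5 against 3110 UMIs on day 1 and 2394.5 against 2289 on day 2, and with LPS and DMSO 4762.5 against 5217 and 4264 against 4956.5. Their mitochondrial share was 1.61% against 1.417% and 1.49% against 1.358% after saline, and 2.923% against 2.908% and 2.448% against 2.418% after LPS. With inhibitors few microglia had at least 3 of the genes. After saline the medians there were 3704 against 3221 and 2419 against 2265.5 UMIs, on 15 and 21 such cells. After LPS they were 2613.5 against 4935.5 and 4050 against 5694 UMIs, on 14 and 15. No test was made of these differences, since cells of a library are not replicates.

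**Figure D3:**
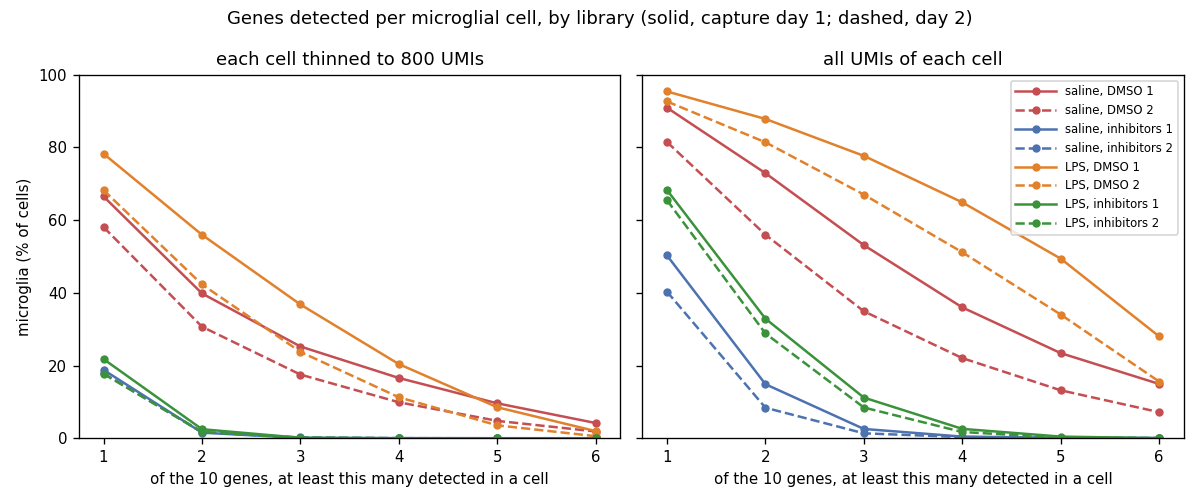
Share of microglia (vertical axis, % of cells) in which at least 1 to 6 of the 10 genes were detected (horizontal axis), 1 line per library, after thinning each cell to 800 UMIs (left) and with all UMIs (right). At 3 or more genes the thinned DMSO libraries lie at 17.5% to 36.8% and the inhibitor libraries at 0.111% to 0.217%.

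The genes were found in the same microglia more often than their separate shares would give. The measure was the number of thinned cells with both genes of a pair over the number expected if the genes were detected independently, for pairs with at least 5 expected cells. The median ratio was 2.12 over 43 of the 45 pairs and 2.31 over 37 pairs with saline and DMSO, and 1.41 over 37 and 1.59 over 27 pairs with LPS and DMSO. It was above 1 in every such pair of those 4 libraries but 1 of the 37 with LPS on day 1. In the inhibitor libraries 3 to 15 pairs could be evaluated, with medians of 1.06 to 1.29. Unthinned, the DMSO medians were 1.49 and 1.81 after saline and 1.2 and 1.28 after LPS. The unthinned inhibitor medians were 1.31 and 1.41 after saline and 1.21 and 1.16 after LPS, the latter near those with DMSO. Fewer pairs entered the inhibitor medians, and the ratio was not measured for pairs of other genes.

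Fos and Jun, the AP-1 partners, were found together in 2106 cells where 1220 were expected with saline and DMSO on day 1 and in 1106 where 562 were on day 2. With LPS and DMSO they were together in 2458 cells where 1809 were expected and in 1616 where 1063 were. Of the 27 pairs with enough cells in all 4 DMSO libraries, Fosb with Egr1 had the highest mean ratio, at 2.89 and 4.13 after saline and 1.83 and 3.17 after LPS. Egr1 with Ier2 was at 3.09 and 4.31, and at 1.55 and 1.81. Junb with Jund was among the lowest, at 1.59 and 1.65, and at 1.37 and 1.49. Ratios are limited by the shares themselves, and the ratio of a pair detected in many cells cannot be high, so the lower LPS values are given as a description.

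Other genes of the same response were counted in microglia from 6 fixed lists. Of 13 further AP-1 and bZIP genes only Atf3, a stress-induced bZIP factor, was called in each arm, at 172 and 99 CPM with DMSO against 15.8 and 16.6 CPM with inhibitors after saline, and at 110 and 44.5 against 9.16 and 11.7 CPM after LPS. Of 4 measured further EGR and NR4A genes and corepressors edgeR and DESeq2 called 0 in each arm (0 and 1 at an unadjusted p under 0.05), and of 14 upstream regulators also 0 by both tools (0 at an unadjusted p under 0.05). Among 12 feedback genes Dusp1, a phosphatase that switches off MAP kinases, was called in each arm (log2 4.58 and 2.55). Of 19 IER, KLF and MYC genes 2 and 3 were called, Klf2 in both (log2 3.34 and 1.93), and of 10 RNA decay and growth arrest genes 3 and 5, with Zfp36 (3.32 and 3.94), Btg2 (1.56 and 2.07) and Ppp1r15a (1.28 and 1.23) in both. At an unadjusted p under 0.05 were 10 and 10 of the IER, KLF and MYC genes and 4 and 7 of the RNA decay genes. So were 3 and 6 of the feedback genes and 3 and 2 of the AP-1 and bZIP genes. DESeq2 called 4 and 4, 3 and 5, 1 and 2, and 1 and 1 in these 4 lists. In all, 32 genes were called higher in both arms: 9 of the 10 immediate-early genes, 6 of the lists and 17 others.

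In macrophages, the border-associated relatives of microglia (287 to 596 cells per library), the genes were also higher with DMSO. Fos was at 4377 and 2836 CPM with DMSO against 94 and 91.4 CPM with inhibitors after saline, and at 2344 and 1742 against 145 and 70.7 CPM after LPS. The log2 differences were 5.28 ± 0.33 and 4.32 ± 0.32, with no overlap between groups. All 10 genes were called within saline, where 0.493% of 10349 genes were, and 9 of 10 within LPS, where 0.329% were. The exception was Egr3, at 0 and 1.11 CPM with DMSO and 0 in both inhibitor libraries after LPS. DESeq2 called 9 genes in each arm.

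Jun in macrophages was at 2695 and 1711 against 143 and 122 CPM after saline and at 946 and 807 against 159 and 115 CPM after LPS. Nr4a1 was at 281 and 142 against 3.43 and 6.53 CPM, and at 202 and 56.6 against 10.5 and 5.98 CPM. Nr4a1 thus kept a log2 difference of 4.02 ± 0.53 within LPS in macrophages. Fosb had 72 UMIs with DMSO and 0 with inhibitors within LPS, so it was at least 21.4-fold higher, taking a floor of 3 UMIs over the group. Egr2 within LPS, at 49 against 2 UMIs, gave a ratio of 21.8 (95% counting interval 5.73 to 185), and Egr3 within saline, at 86 against 3 UMIs, one of 33.8 (11.2 to 167).

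Single macrophages with at least 3 of the genes, after thinning, made up 53.2% and 41.5% with DMSO against 2.12% and 2.10% with inhibitors after saline, and 49.8% and 39.5% against 4.11% and 0.542% after LPS. Unthinned, the shares were 68.8% and 53.7% against 10.4% and 8.06%, and 73.5% and 66.9% against 18.0% and 10.3%. By the level of Ttr, a choroid plexus gene, free RNA could account for 4.71% to 8.24% of macrophage UMIs. By the level of microglial genes it could account for 11.8% to 45.9%. With that larger share subtracted, an alternative chosen after the data were seen, 9 genes were called within saline and 3 (Fos, Jun and Jund) within LPS. The lost calls do not by themselves show that the differences were gone, and the part of free RNA in them was not tested. Egr3 within saline was lost without saline and DMSO replicate 1, and Egr2 within LPS without LPS and DMSO replicate 1 or LPS and inhibitors replicate 2.

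Monocytes, blood-derived myeloid cells (51 to 1036 per library), differed chiefly in Fos. It was at 4905 and 2147 CPM with DMSO against 456 and 323 CPM with inhibitors after saline, and at 901 and 945 against 101 and 125 CPM after LPS. The log2 difference was 3.13 ± 0.4 (edgeR adjusted p = 0.0137) and 3.14 ± 0.39 (edgeR adjusted p = 0.0119), and of the 8 genes that could be tested Fos alone was called in each arm, where 0.0173% and 0.00864% of genes were. With inhibitors the monocytes still held Nr4a1 at 335 and 192 CPM after saline and 149 and 105 CPM after LPS, against 1320 and 307, and 203 and 207 CPM with DMSO. Of the 8 genes, 8 and 4 had an unadjusted p under 0.05. The fit with capture day as a block called 6 within saline (Fos, Fosb, Jun, Junb, Jund and Nr4a1) and 1 within LPS, DESeq2 4 and 1, and the fit with free RNA subtracted 0 in each, with Fos at log2 3.09 and 2.95 (edgeR adjusted p = 0.0516 and 0.11). The Fos call was also lost without LPS and inhibitors replicate 1 or 2 in both arms, and without saline and inhibitors replicate 1 within saline.

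In neutrophils (32 to 491 per library) Fos and Junb had their highest levels with LPS and DMSO. There Fos was at 5159 and 3454 CPM against 356 and 303 CPM with inhibitors, and Junb at 2564 and 2023 against 349 and 257 CPM. After saline Fos was at 1609 and 1402 against 759 and 393 CPM, and Junb at 477 and 561 against 404 and 268 CPM. These groups did not overlap either, but the gap was smaller. Within LPS Fos (log2 3.87 ± 0.4), Junb (3.09 ± 0.38) and Jun (2.24 ± 0.4) were called of 9 tested, where 0.131% of genes were. Within saline edgeR called 0 of 9, where 0% of all 7652 genes were called; 5 of 9 had an unadjusted p under 0.05, DESeq2 called 1 (Fos), and the fit with capture day as a block 3 (Fos, Jun and Nr4a1). Within LPS that fit called all 9, and DESeq2 5. With free RNA subtracted, Fos alone was called within LPS, the calls of Jun and Junb being lost, which does not show that their differences were gone. Without LPS and inhibitors replicate 1 or replicate 2 all 3 calls within LPS were lost, and without LPS and DMSO replicate 1 that of Jun was.

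The interaction in neutrophils was called for 0 of 9 genes by edgeR (0% of all genes), with 3 at an unadjusted p under 0.05: Fos (log2 2.22, unadjusted p = 7.30e-04), Junb (2.23, 5.93e-04) and Egr1 (3.02, 0.00467). DESeq2 called 2 (Fos and Junb) and the fit with capture day as a block 3. In macrophages edgeR and DESeq2 called it for 0 of 10 genes (0% of all genes by edgeR), with 4 at an unadjusted p under 0.05 and a median of -0.93 on the log2 scale, and the block called Jun (-1.28, edgeR adjusted p = 0.0269). In the other classes, dendritic cells not being tested, edgeR and DESeq2 called it for 0 of the genes, with 0 to 3 at an unadjusted p under 0.05 in a class. Of all genes edgeR called 0.0281% in B-cells, 0.0337% in ependymal cells, 0.151% in mural cells and 0% in the rest, and the block called Jun in B-cells (-3.47, edgeR adjusted p = 0.0453). Neutrophils with at least 3 of the genes were 45.5% and 32.3% with DMSO against 18.8% and 14.7% with inhibitors after saline, and 80.7% and 65.8% against 19.5% and 14.7% after LPS (unthinned 81.8% and 67.2% against 31.2% and 25.3%, and 91.6% and 83.3% against 47.9% and 41.3%). With inhibitors, then, 14.7% to 19.5% of neutrophils had 3 or more of the genes, where 0.111% to 0.217% of microglia did. By the larger of the estimates from Ttr and from microglial genes, free RNA could account for 8.01% to 22.8% of neutrophil UMIs. By Ttr alone it could account for 6.54% to 18.0% in neutrophils and 3.21% to 8.05% in microglia. Its part in the shares of cells with 3 or more genes was not tested. Neutrophils with at least 3 of the genes were shallower than those with none before thinning, as microglia were after LPS but not after saline. With inhibitors their medians were 1214 against 2407 and 1352.5 against 2548 UMIs after saline, and 1496.5 against 1652 and 1341 against 2154 after LPS. After LPS the inhibitor libraries also held 454 and 309 CPM of Nr4a1 in neutrophils.

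Lymphocytes and dendritic cells were fewer, and Fos was the gene most often called in them. In B-cells (20 to 313 per library) Fos (log2 3.64 ± 0.46), Jun (3.61 ± 0.6), Junb (2.17), Jund (1.49) and Egr1 (3.36) were called of 7 tested within saline, where 0.281% of genes were, and Fos alone within LPS, where 0.140% were, on 26 against 1 UMIs (ratio 27.7, 95% counting interval 4.55 to 1.14e+03). In T-cells (45 to 104 per library) Fos alone of 5 was called in each arm, where 0.0382% of genes were in each. It rested on log2 3.91 ± 0.51 within saline and on 63 against 1 UMIs within LPS (ratio 60.2, 10.4 to 2.41e+03). In NK cells edgeR called 0 of 4 genes in each arm (0% and 0.0393% of all genes), with 2 and 1 at an unadjusted p under 0.05 and 0 by DESeq2. In dendritic cells, too few for a test within saline, Fos (3.63 ± 0.55), Jun (2.94) and Junb (1.79) were called of 9 within LPS, where 0.460% of genes were. DESeq2 called 3 genes (Egr1, Fos and Jun) in B-cells within saline, Fos alone in dendritic cells, Fos and Junb in T-cells within saline, and 0 genes in T-cells and B-cells within LPS. With free RNA subtracted, the Fos calls in T-cells and that in B-cells within LPS were lost, as were Junb and Jund in B-cells within saline and Jun and Junb in dendritic cells. These losses concern the calls and do not give the size of the differences that remained. With capture day as a block, Ier2 was also called in B-cells within saline, and Junb in dendritic cells was lost. Leaving out LPS and DMSO replicate 1, or LPS and inhibitors replicate 1 or 2, lost Jun and Junb in dendritic cells. The Fos call within LPS was lost without LPS and inhibitors replicate 2 in T-cells and B-cells, and without LPS and DMSO replicate 1 in B-cells. Within saline, B-cells lost Junb and Jund without saline replicate 1 of either condition, and Egr1 and Jund without saline and inhibitors replicate 2.

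Non-immune cells that came through the CD45 selection also carried the transcripts. In mural cells, the pericytes and smooth muscle of vessels (14 to 69 per library), Fos was at 2125 and 282 CPM with DMSO against 24.5 and 43.8 CPM with inhibitors after saline, and at 1449 and 708 against 99.4 and 16.7 CPM after LPS. It was called in both arms (log2 5.37 ± 0.67 and 4.2 ± 0.69). Jun, at 34 against 3 UMIs (ratio 26.2, 95% counting interval 8.22 to 133), and Junb (2.9) were also called within saline, so 3 of 7 genes were called there and 1 within LPS, where 0.554% and 0.0504% of all genes were, while DESeq2 called 1 (Fos) and 0. Of the 34 Jun UMIs, 33 lay in the day 1 library (356 and 28.2 CPM), and Junb overlapped between groups (399 and 28.2 against 19.6 and 65.7 CPM). Without saline and DMSO replicate 1 all 3 calls within saline were lost, and those of Jun and Junb were lost without saline and inhibitors replicate 1, without the deepest 8% of cells and with free RNA subtracted. In ependymal cells, the ciliated lining of the ventricles (19 to 224 per library), Fos was at 268 and 174 against 4.57 and 6.71 CPM, and at 1141 and 516 against 149 and 127 CPM after LPS. Of 6 genes tested in ependymal cells Fos (4.98), Jun (1.46), Junb (4.01) and Egr1 (75 against 3 UMIs, ratio 45.5, 15 to 226) were called within saline and Fos (2.58) within LPS, where 0.185% and 0.0169% of all genes were. DESeq2 called 2 of them (Fos and Junb) within saline, and the fit with capture day as a block added Egr1 within LPS. Within saline Fos alone was called in ependymal cells with free RNA subtracted, without the deepest 8% of cells, and without saline and inhibitors replicate 2. The call of Jun was also lost without any of the other 3 saline libraries. Within LPS the Fos call was lost without LPS and inhibitors replicate 2 and without the deepest 8% of cells.

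Endothelial cells (95 to 247 per library) gave no call with edgeR. Fos was at 131 and 96.8 CPM with DMSO against 21.8 and 30.1 CPM with inhibitors after saline, and at 372 and 116 against 55 and 47.4 CPM after LPS. Jun was at 459 and 341 against 246 and 253 CPM, and at 249 and 197 against 110 and 171 CPM. Neither gene overlapped between groups, but 0 of 9 genes were called in each arm (0% and 0.0207% of all genes), with 4 and 4 at an unadjusted p under 0.05. Fos, at log2 2.13 ± 0.43 and 2.26 ± 0.42, was called in both arms by DESeq2 and by the fit with capture day as a block.

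In choroid plexus cells, the secretory epithelium that makes cerebrospinal fluid, edgeR and DESeq2 called 0 of 7 genes in each arm (0% and 0% of all genes by edgeR), with 6 and 6 at an unadjusted p under 0.05. Fos was at 78.3 and 63.2 against 0 and 10.1 CPM, and at 107 and 309 against 28.7 and 6.66 CPM after LPS, and the fit with capture day as a block called Egr1, Fos and Jun within LPS. In leptomeningeal fibroblasts 0 of 7 genes were called by edgeR and 0 by DESeq2 within saline (0% of all genes by edgeR; 4 at an unadjusted p under 0.05), and Fos within LPS (log2 3.64 ± 0.55, edgeR adjusted p = 0.0254; 0.0285% of all genes). That call was lost with the block, with free RNA subtracted, without the deepest 8% of cells and without LPS and DMSO replicate 1.

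Over all classes, Fos was called higher with DMSO in 7 of 12 classes within saline and in 10 of 13 within LPS, and its log2 fold change was above 0 in all 12 and all 13. Junb was called in 5 of 12 and 4 of 13, Jun in 5 of 11 and 4 of 12, and Egr1 in 4 of 10 and 2 of 11. Jund and Ier2, tested in as many classes as Fos, were called in 3 and 2 of 12, and in 2 and 2 of 13. Nr4a1 was called in 2 of 8 and 2 of 9 classes. Classes differed in cell number and depth, so the counts do not rank them by response. Fos was also higher with DMSO in free RNA. With free RNA subtracted, the Fos calls were lost in monocytes and T-cells in both arms, and in B-cells and leptomeningeal fibroblasts within LPS.

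**Figure D4:**
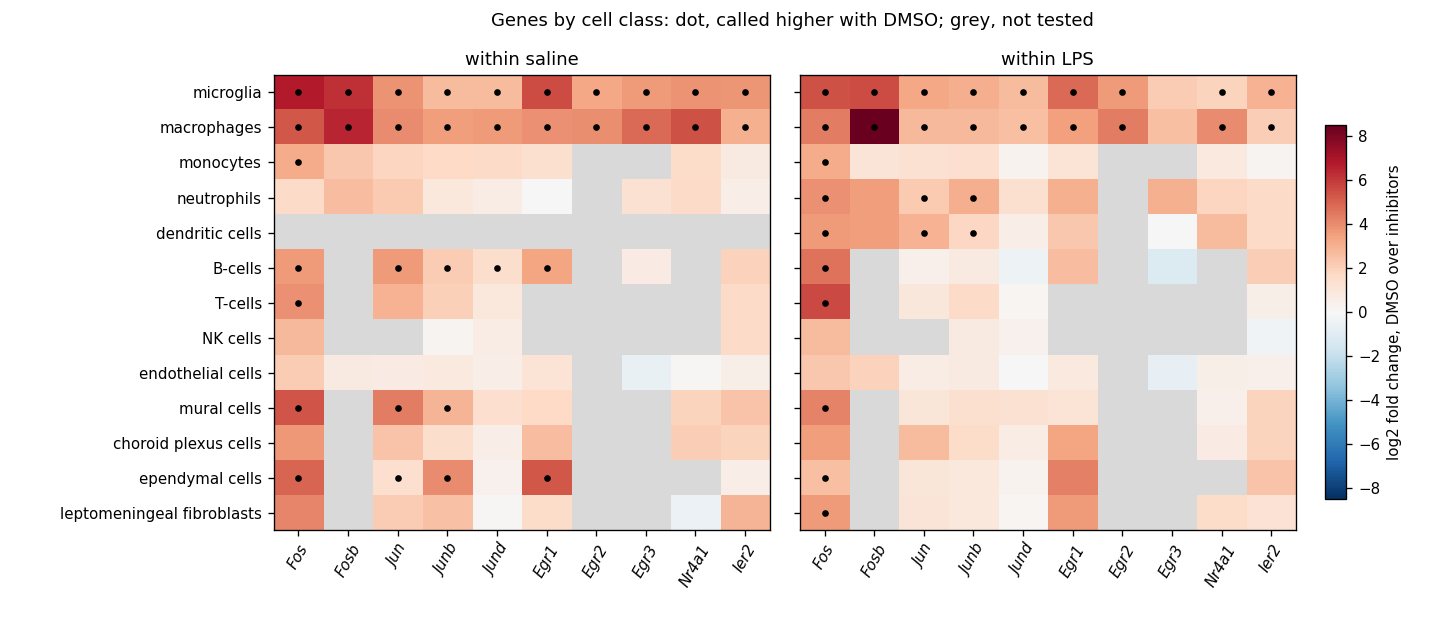
Log2 fold change of DMSO over inhibitors (colour) for each gene (columns) in each cell class (rows), within saline and within LPS. Dots are genes called higher without subtracting free RNA, and grey cells could not be tested. Microglia and macrophages have 10 of 10 dots within saline and 9 of 10 within LPS, and Fos has a dot in 7 of 12 classes within saline and 10 of 13 within LPS. Egr3 in dendritic cells had no UMI in the LPS libraries and is drawn at 0.

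Free RNA held the same transcripts and moved with the dissociation condition. Among barcodes with at most 99 UMIs, Fos was at 1498 and 655 CPM with saline and DMSO and at 46.0 and 37.4 CPM with saline and inhibitors, and at 1642 and 1243 against 45.2 and 53.6 CPM with LPS. In microglia, 3.21% to 8.05% of UMIs could be free RNA by the level of Ttr, a choroid plexus gene, which would give 97.9, 48.3, 52.7 and 41.8 CPM of Fos in the DMSO libraries where 1204, 647, 1555 and 1184 CPM were measured. For other classes the larger of the estimates from Ttr and from microglial genes was used, and for choroid plexus cells the latter alone. In monocytes with saline and DMSO on day 1, 97.4 CPM would be expected and 4905 were measured, and in mural cells 68.6 and 2125. In other classes the measured level of some libraries lay near that of free RNA: choroid plexus cells were at 309 CPM where 372 would be expected with LPS on day 2, leptomeningeal fibroblasts at 174.8 where 174.1 would be with saline on day 1, and NK cells at 63.9 (3 UMIs) where 102.5 would be. With saline on day 2, leptomeningeal fibroblasts were at 267 CPM of Fos where 87.1 would be expected and NK cells at 108.9 (18 UMIs) where 42.4 would be. With LPS, where Fos was called in the fibroblasts, they were at 723 CPM where 922 would be expected on day 1 and at 391 where 249 would be on day 2. For the fibroblasts with LPS and DMSO these expectations rest on shares of 56.1% and 20.0% by microglial genes. Ttr gave 5.29% and 3.75% there, so by Ttr less Fos would be expected than was measured. With free RNA subtracted, all 10 genes were still called in microglia within saline.

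**Figure D5:**
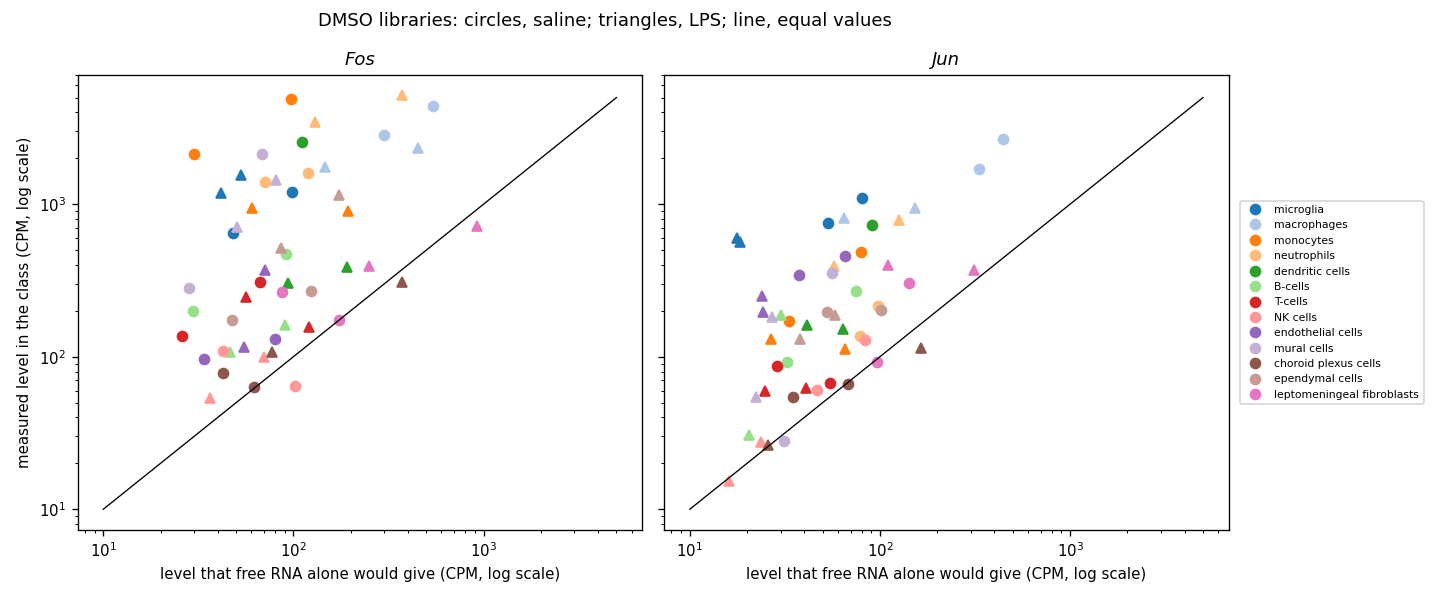
Measured level of Fos and Jun in each cell class (vertical axis, CPM, log scale) against the level that free RNA alone would give (horizontal axis, CPM, log scale), 1 point per DMSO library (circles, saline; triangles, LPS), with a line of equal values. Microglia lie far above the line, with Fos at 1204 against 97.9 CPM on day 1 after saline, and some libraries of choroid plexus cells, leptomeningeal fibroblasts and NK cells lie near it.

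LPS was compared with saline in the other classes as well. In macrophages with inhibitors Ier2 (log2 1.62) and Junb (1.25) were higher after LPS and Fosb was at least 2.8-fold lower (11 against 0 UMIs), so 3 genes were called in either direction, where 25.3% of all genes were. By totals Junb (0.87) was not called. With DMSO, Fosb (-3.19), Jund (-1.07), Egr2 (-1.34) and Egr3 (86 against 1 UMIs, ratio 86.7, 95% counting interval 15.1 to 3.46e+03) were lower in macrophages, where 13.3% of genes were. Fosb, Jund, Egr2 and Egr3 thus fell with DMSO in macrophages and in microglia.

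In monocytes Fos and Fosb were lower after LPS with inhibitors (log2 -1.73 and -4.3, where 4.45% of genes were), and Fos (-1.72), Fosb (-5.47) and Nr4a1 (-1.73) were lower with DMSO, where 3.93% were. With capture day as a block, Egr1 (-1.05) and Jun (-1.09) were also called lower in monocytes with DMSO. In neutrophils Nr4a1 alone was higher after LPS with inhibitors (1.91, where 2.74% of genes were), and with the block Jun (1.78) as well. With DMSO 8 of 9 genes were higher in neutrophils: Fos (1.65), Jun (1.87), Junb (2.27), Jund (1.25), Egr1 (3.29), Egr3 (3.08), Nr4a1 (2.14) and Ier2 (1.37), where 8.17% of genes were. By totals Jund (1.08) was not called among them. With free RNA subtracted, Fos, Jun, Junb and Nr4a1 kept that call, and the neutrophil call with inhibitors was lost. In endothelial cells Junb (1.91) and Egr1 (2.07) were higher with inhibitors, where 10.6% of genes were, and Junb (1.87), Egr1 (1.76), Fos (1.33) and Nr4a1 (1.3) with DMSO, where 10.8% were. With DMSO, Fos (372 and 116 against 131 and 96.8 CPM) and Nr4a1 (260 and 82.7 against 93.8 and 70 CPM) overlapped between LPS and saline. Egr1 was at 354 and 89.3 against 89.3 and 64 CPM there. Fos in endothelial cells with inhibitors (log2 1.18) was called with the block (edgeR adjusted p = 0.0432). In T-cells edgeR called 0 of 5 genes in each condition, where 5.88% (inhibitors) and 5.42% (DMSO) of all genes were called in either direction. In choroid plexus cells it called 0 of 7, where 5.52% and 3.09% were. At most 1 of the genes had an unadjusted p under 0.05 in a condition, and DESeq2 called 0.

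In ependymal cells Fos and Junb were higher after LPS with inhibitors, where 7.54% of genes were, and Fos, Junb and Ier2 with DMSO, where 5.73% were. With inhibitors Fos was at 149 and 127 CPM after LPS against 4.57 and 6.71 CPM after saline (log2 4.46 ± 0.54), and Junb at 108 and 170 against 4.57 and 2.52 CPM (5.72 ± 0.58). These levels rested on few UMIs, 11 and 47 against 1 and 8 for Fos and 8 and 63 against 1 and 3 for Junb. With DMSO the log2 differences were 2.06 ± 0.31 for Fos, 2.59 ± 0.38 for Junb and 2.99 ± 0.51 for Ier2, at 208 and 127 against 44 and 11 CPM. None of these groups overlapped, and DESeq2, totals, the block and the fit with free RNA subtracted made the same calls.

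The smaller classes gave calls that mostly depended on the setting. In B-cells Jun (2.89) was higher after LPS with inhibitors, where 2.13% of genes were, and was lost by totals and with free RNA subtracted. Jund (-1.49) was lower in B-cells with DMSO, where 1.21% were, but not by DESeq2. In dendritic cells with inhibitors, on 22 and 10 cells after saline, Junb (1.56) was higher, where 9.72% of genes were, and Jun (-2.72), Egr1 (-2.69) and Egr3 (5 against 0 UMIs, at least 2.13-fold) were lower, where 7.82% were. DESeq2 called Egr1 alone of these, and totals, the block and the subtraction of free RNA each lost Egr3. In mural cells Junb (2.6) and Nr4a1 (2.94) were higher with inhibitors, where 6.45% of genes were. Nr4a1 overlapped between these groups, at 582 and 33.4 CPM after LPS (41 and 2 UMIs) against 9.78 and 98.6 CPM after saline (2 and 9 UMIs). DESeq2 called 0 in mural cells, and the block added Egr1 in both conditions. In leptomeningeal fibroblasts with inhibitors Jun (2.21) and Junb (2.76) were higher, where 7.92% of genes were, and Nr4a1 lower (34 against 3 UMIs, ratio 21.9, 95% counting interval 6.89 to 111), where 5.47% were. All 3 calls in leptomeningeal fibroblasts were lost with free RNA subtracted, and that of Jun by totals. With DMSO edgeR and DESeq2 called 0 of 7 genes in mural cells (3 at an unadjusted p under 0.05), where edgeR called 10.9% of all genes in either direction, and in leptomeningeal fibroblasts (4), where it called 8.17%. In NK cells they called 0 of 4 in each condition, with 1 and 1 at an unadjusted p under 0.05, where edgeR called 7.70% (inhibitors) and 6.24% (DMSO) of all genes, while the block and the subtraction of free RNA each called Ier2 lower with DMSO.

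The genes most like the 10 across the 8 microglial sums were found by correlating each of 10379 genes with the mean of the 10 on the log scale. Atf3 was the most alike (Pearson r = 0.980), followed by Mir142hg (0.970), Adamts1 (0.969), Gm26532 (0.961), 2900060B14Rik (0.945), Btg2 (0.939), Zfp36 (0.933), Nfkbid (0.932), Hspa1a (0.921) and Csrnp1 (0.905). These values describe 8 libraries in 4 groups and share their library and depth.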

How the data were processed

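CD45+ cells of 8 brains were profiled by PIPseq, and the authors deposited 1 table of UMI counts per library, which, per the study's methods, were made with PIPseeker and STAR on a GENCODE annotation of the mouse genome and analysed with Seurat 4 (version per the submitters' processing notes). No normalization had been applied to these counts. Cells with at least 800 and under 45000 UMIs, at least 250 and under 6500 genes and under 5% mitochondrial UMIs were kept and classed by marker lists, starting from cells with many markers of 1 class and refining by profile; cells with markers of 2 classes were left out, and no doublet caller was run. No cell annotation was used here, so the classes are rebuilt. UMIs were summed per class and library (classes with at least 10 cells in a library) and fitted with edgeR 4.0.16 in R 4.3.3 (TMM, low-count filter, 4 groups in 1 model, no block), with Benjamini-Hochberg adjustment over all genes of the class. DESeq2 1.42.0 was an alternative, as were other filters and normalizations, thinning, the replicate block, each library left out, no cells among the 8% deepest, library totals as the only scaling, and free RNA subtracted; the latter pair were chosen after seeing the data. The last subtracts from each class the profile of barcodes with at most 99 UMIs, scaled by marker genes of other cells. Microglia were scaled by Ttr and choroid plexus cells by microglial genes. The other classes were scaled by the larger of the 2 estimates. A call lost under an alternative means that the limit on adjusted p or fold was no longer passed, and not that the difference was gone. Shares of all genes called are those of the main fit. Apart from totals in microglia, no such count is given for the alternatives, so a gain or loss of calls there may concern all genes.

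Replicate numbers match the batch numbers of the samples, which are taken as capture days and so pair the samples. Same-day deviations from the group means of microglia correlated at 0.0723 to 0.4871 over 22009 genes. Values with the block stand beside the reported results whose calls it changed. In data simulated for the saline comparison in microglia (21294 genes), 88 of 100 genes changed 2-fold and 100 of 100 changed 4-fold were recovered, with 5 false calls. Recovery was counted at an adjusted p under 0.05 without the fold limit. The changed genes were drawn from those with many UMIs, at a fixed spread, so these rates do not describe the reported calls. Python 3.11.15, numpy 2.4.6, scipy 1.17.1 and pandas 2.3.3 did the rest. Intervals cover counting error only. The tests of the 10 genes are reported by class, with values for those called; of other lists, counts and the genes called in both arms are given, and the 10 genes most like the mean of log2 (CPM + 0.5) among genes with a mean of at least 5 CPM. The 10 genes and the lists were chosen with earlier results of these data known. The genome build of the count tables differs from that of the promoter sequences. The study's methods give a younger age for the mice than the labels do, and the labels were followed.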

Additional observations from a re-analysis of the deposited data

Results flagged for a closer look

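Some effects of LPS went in opposite directions in 2 cell classes, with each class past the threshold in its own test. Fos was higher after LPS in microglia and lower in monocytes, both with inhibitors (log2 2.71 against -1.73) and with DMSO (1.35 against -1.72). With inhibitors Egr1 was higher in microglia and lower in dendritic cells (1.46 against -2.69), of which the saline libraries held 22 and 10. With DMSO, Jund was higher in neutrophils and lower in microglia (1.25 against -1.16), as was Egr3 (3.08 against -2.72). Nr4a1 with DMSO was higher in neutrophils (2.14) and in endothelial cells (1.3) and lower in microglia (-1.18). In endothelial cells Nr4a1 overlapped between the arms (260 and 82.7 CPM after LPS, 93.8 and 70 CPM after saline). In each case the level rose on both capture days in the former class and fell on both in the latter, and the difference between the classes was not tested. With library totals as the only scaling, Egr1 in microglia with inhibitors (0.72), Fos in microglia with DMSO (0.56) and Jund in neutrophils (1.08) were not called. With free RNA subtracted, the neutrophil calls of Jund and Egr3 were lost and that of Nr4a1 was kept. In microglia the calls of Jund and Nr4a1 with DMSO were lost without LPS and DMSO replicate 2 and without the deepest 8% of cells, and that of Nr4a1 also without saline and DMSO replicate 1. Neutrophils numbered 32 to 491 and monocytes 51 to 1036 per library, against 8369 to 13513 microglia. Monocytes numbered 51 to 133 per library after saline and 628 to 1036 after LPS, and neutrophils 32 to 201 and 307 to 491. Whether the kinds of cell within these classes changed with LPS was not tested.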

How the results depend on the processing

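In microglia all 10 genes were called higher with DMSO within saline under every alternative run, and no DMSO difference of these genes in microglia changed sign under any. Within LPS 9 were called (7 to 10 with a library left out): Egr3 was also called by DESeq2 (log2 2.15) and without the low-count filter (2.15). Nr4a1 was lost without LPS and DMSO replicate 1 (1.40), or LPS and inhibitors replicate 1 (1.68) or 2 (2.11), and Egr2 without LPS and inhibitors replicate 1 (3.68) or 2 (3.52). Of the gene and class pairs called, the other immune classes had 17 within saline (26 with the replicate block, 14 to 24 with a library left out) and 18 within LPS (5 with free RNA subtracted, 9 to 22, with 9 without LPS and inhibitors replicate 2, which lost the 3 neutrophil calls and the monocyte call). The non-immune classes had 7 within saline (4 by DESeq2, 11 without the filter, 2 without the deepest 8% of cells, 2 with free RNA subtracted, 4 to 9, with 4 without saline and DMSO replicate 1 or saline and inhibitors replicate 1), and 3 within LPS (10 without the filter, 7 with the replicate block, 2 to 8, with 8 without LPS and DMSO replicate 2). The cause of these changes was not tested, and the share of all genes called by each alternative fit is not given beside them. With the block, the Fos difference in endothelial cells was called in both arms (edgeR adjusted p = 0.0329 and 0.0072).

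The interaction in microglia was 0 genes (1 by DESeq2, 1 without the filter, 0 to 1 with a library left out, 1 without saline and DMSO replicate 2). LPS against saline gave 5 genes with inhibitors (4 to 7) and 7 with DMSO (7 to 8), and 6 and 6 with library totals as the only scaling. With DMSO the 7 were not always the same genes: without LPS and DMSO replicate 2 and without the deepest 8% of cells, Jund and Nr4a1 were lost and Egr1 and Junb gained, and without saline and DMSO replicate 1 Nr4a1 was lost and Egr1 and Junb gained. The share of microglia with 3 or more genes was higher with DMSO by 21.2 percentage points within saline (30.9 thinned to 1500 UMIs, 42.1 unthinned, 33.7 for 2 or more genes, 13.2 for 4 or more, 17.4 to 25.1 with a library left out) and by 30.2 within LPS (45.5, 62.5, 47.0 and 15.8, and 23.6 to 36.7). The mean over DMSO libraries of the median co-detection ratio was 1.86 (1.64 thinned to 1500 UMIs, 1.45 unthinned, 1.71 to 2.01). With 2 libraries per group, a group with 1 left out holds a lone library, assumed to vary like the others. Fosb, Egr2 and Egr3 had few UMIs outside microglia and macrophages, as had many of the genes in classes of few cells. What this did to their calls was not tested.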

Other observations

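Beyond the 10 genes and the lists, 17 genes were called higher with DMSO in microglia in both arms. They include 6 linker and core histone genes (H1f2, H1f3, H1f4, H2bc8, H2bc11 and H2bc12), the inducible heat shock genes Hspa1a and Hspa1b, Socs3, a feedback inhibitor of cytokine signalling, and Nfkbid, an inhibitor of NF-kappaB. The other 7 are long noncoding or unnamed transcripts (2900060B14Rik, D830025C05Rik, Gm10138, Gm26532, Gm26759, Gm30198 and Gm44710). These genes were named after their calls were seen, and all 17 are given, in no order of size.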
